A study of Mus musculus with 112 samples.

Results

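The homeobox genes of the 4 mouse Hox clusters were followed through chemically induced skin tumours and their metastases. Members were all genes whose platform symbol is Hoxa, Hoxb, Hoxc or Hoxd followed by a number. Each was read from a probe set that names a single gene, and where a gene had several such sets the one with the highest mean was used. This gave 36 members among 18772 genes: 10 of the Hoxa cluster on chromosome 6, 9 of the Hoxb cluster on chromosome 11, 9 of the Hoxc cluster on chromosome 15 and 8 of the Hoxd cluster on chromosome 2. They cover all 13 paralog groups. Hoxb8 is named only on a set that it shares with Hoxb7 and was not analysed here. Of the 36 members, 24 exceeded the overall median of all values, 6.12 on the log2 scale, in at least 8 arrays. The low members were Hoxa10, Hoxa11, Hoxa13, Hoxb1, Hoxb13, Hoxc10, Hoxc11, Hoxc12, Hoxd1, Hoxd3, Hoxd11 and Hoxd12. All 36 entered every test. The annotated spans of Hoxa3 and Hoxa4 to Hoxa6, of Hoxb3 and Hoxb4, of Hoxd3 and Hoxd4 and of Hoxd10 and Hoxd11 overlap, so their probe sets may read more than 1 transcript.

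Hox proteins are homeodomain transcription factors that give cells of the body axis their regional identity. The order of the genes along each cluster matches the order of their domains along the axis, low-numbered paralogs acting towards the head and high-numbered paralogs towards the tail and the ends of the limbs, and adult skin keeps much of this address, chiefly in dermal fibroblasts. Hox proteins bind DNA together with TALE homeodomain cofactors of the Pbx, Meis and Pknox families, the clusters are held silent or open by polycomb and trithorax complexes, and Hoxc13 has a further task in the hair follicle, where it drives hair keratin genes.

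The study profiled skin, benign papillomas, carcinomas and metastases of 15 male mice. At 8 weeks of age the skin received DMBA, a mutagen, and afterwards TPA, a tumour promoter, 2 times a week. All mice were a backcross, in which F1 hybrids of Mus spretus and FVB were crossed to FVB, so that each animal carries its own mixture of alleles, and 6 mice lacked Hras (HrasKO) while 9 were wild type (WT). Tumours were taken out when large, and metastases were collected when the animals were killed. RNA of each sample was read on 1 array, 112 arrays in all, and every value below is on a log2 intensity scale on which a difference of 1 is a doubling of signal.

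The groups were 15 samples of dorsal skin (1 per mouse, 6 HrasKO and 9 WT), 27 papillomas of 13 mice (8 of 4 HrasKO mice and 19 of 9 WT mice), 12 spindle cell carcinomas of 10 mice (5 of 4 HrasKO mice and 7 of 6 WT mice), 10 squamous cell carcinomas (SCC) of 8 WT mice, and 3 carcinomas of mixed histology. The metastases were 20 of spindle histology from 7 mice (10 of 4 HrasKO mice and 10 of 3 WT mice), 24 of SCC histology from 11 mice (6 of 3 HrasKO mice and 18 of 8 WT mice) and 1 mixed. By site, 24 came from lymph nodes of 14 mice, 10 from the lungs of 10 mice, 3 each from spleen, liver and thymus, 1 from kidney and 1 from dorsal skin. Arrays of a mouse were averaged within a group, and n is the number of mice. In such bulk samples, fewer cells of a type and less RNA per cell cannot be told apart. The labels give 2 batches, of 95 arrays from 13 mice and 17 arrays from 2 mice. The value table holds no count or depth, so the number of mice sets the precision.

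Some arrays did not resemble their label. Of the papillomas, 5 arrays stood apart from the rest: 1 of mouse 1407 was closest to skin, and 1 each of mice 1508 and 1984 and 2 of mouse 1815 were closest to spindle carcinomas. A mean of 15 keratinocyte genes (keratins, desmosome genes and Trp63, among others) served to check the histology labels. It lay between 10.03 and 11.39 in the SCC and between 8.43 and 10.28 in 19 SCC metastases, but between 5.60 and 6.63 in the other 5, which came from lymph nodes of mouse 1706 and the lungs of mice 1616, 1664 and 1949. In spindle carcinomas it lay between 5.78 and 8.64 except for 1 carcinoma of mouse 1949 at 10.44, and in spindle metastases between 4.99 and 7.84. Results that rest on these 5 papillomas or on the 6 arrays that go against their histology are given with and without them.

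Promoters are shown for 4 members on which the results turn: Hoxd4 and Hoxd8, which were lower in papillomas than in skin, and Hoxa2 and Hoxa5, which were higher in spindle than in squamous carcinomas. Each sequence is the 250 bases before the start of the gene, 5′ to 3′ on the gene's strand, from RefSeq (build GRCm38.p6). Capitals mark CG dinucleotides, the site of DNA methylation. Hoxd4 is read at chr2:74721728-74721977 on the plus strand, Hoxd8 at chr2:74704365-74704614 on the plus strand, Hoxa2 at chr6:52164832-52165081 on the minus strand and Hoxa5 at chr6:52204588-52204837 on the minus strand.
Hoxd4: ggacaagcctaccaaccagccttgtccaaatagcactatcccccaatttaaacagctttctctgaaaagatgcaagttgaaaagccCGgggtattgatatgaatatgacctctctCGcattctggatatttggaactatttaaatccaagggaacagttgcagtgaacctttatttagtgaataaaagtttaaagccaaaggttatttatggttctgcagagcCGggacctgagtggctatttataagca
Hoxd8: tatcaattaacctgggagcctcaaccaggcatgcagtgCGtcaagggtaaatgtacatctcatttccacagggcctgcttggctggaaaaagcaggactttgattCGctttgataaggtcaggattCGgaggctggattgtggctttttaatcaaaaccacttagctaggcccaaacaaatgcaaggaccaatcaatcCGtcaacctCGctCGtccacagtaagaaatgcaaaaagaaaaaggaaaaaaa
Hoxa2: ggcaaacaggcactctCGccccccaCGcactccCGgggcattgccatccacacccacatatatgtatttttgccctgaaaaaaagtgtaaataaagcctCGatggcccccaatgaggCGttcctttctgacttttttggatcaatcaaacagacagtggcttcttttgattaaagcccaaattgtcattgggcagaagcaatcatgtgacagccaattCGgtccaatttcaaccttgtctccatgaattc
Hoxa5: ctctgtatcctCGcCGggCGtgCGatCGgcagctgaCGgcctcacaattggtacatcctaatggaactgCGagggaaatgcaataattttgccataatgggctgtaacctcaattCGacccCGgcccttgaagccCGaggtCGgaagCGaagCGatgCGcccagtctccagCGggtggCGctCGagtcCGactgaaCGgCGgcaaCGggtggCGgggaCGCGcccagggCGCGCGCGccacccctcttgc
The windows held 3 CG dinucleotides for Hoxd4, 6 for Hoxd8, 6 for Hoxa2 and 28 for Hoxa5. Over all 32851 windows of this kind the median was 6, and over the 22 windows found for 20 of the members it was 12.5, with a range of 2 to 35. The letters TGATNNAT, a form of the site bound by a Hox protein with Pbx, were searched on both strands. They occurred in 7.68% of all windows and in 3 of the 22 Hox windows, those of Hoxa2, Hoxb1 and Hoxd11. The core homeodomain site TAATTA occurred in 4.84% of all windows and in 2 of the 22 Hox windows, both of Hoxd11. None of the 4 windows printed holds TAATTA.

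Members followed different courses across the stages. Hoxd8 averaged 7.17 ± 0.50 in skin (SD, n = 15), 5.60 ± 0.50 in papillomas (n = 13), 5.65 ± 1.14 in spindle carcinomas (n = 10) and 5.58 ± 0.81 in SCC (n = 8), with 5.12 ± 0.84 in spindle metastases (n = 7) and 5.12 ± 1.09 in SCC metastases (n = 11). Most of its distance from skin was present in papillomas. Hoxa2 averaged 6.06 ± 0.33 in skin, 5.88 ± 0.59 in papillomas, 7.32 ± 0.62 in spindle carcinomas and 5.65 ± 0.60 in SCC, with 7.60 ± 0.91 in spindle metastases and 6.53 ± 1.07 in SCC metastases. Hoxc8, a thoracic-level gene, averaged 9.40 ± 0.40 in skin, 8.67 ± 0.82 in papillomas, 8.07 ± 1.20 in spindle carcinomas and 8.00 ± 0.78 in SCC. Its means were 6.68 ± 1.14 in spindle metastases and 7.06 ± 1.25 in SCC metastases.

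**Figure D1:**
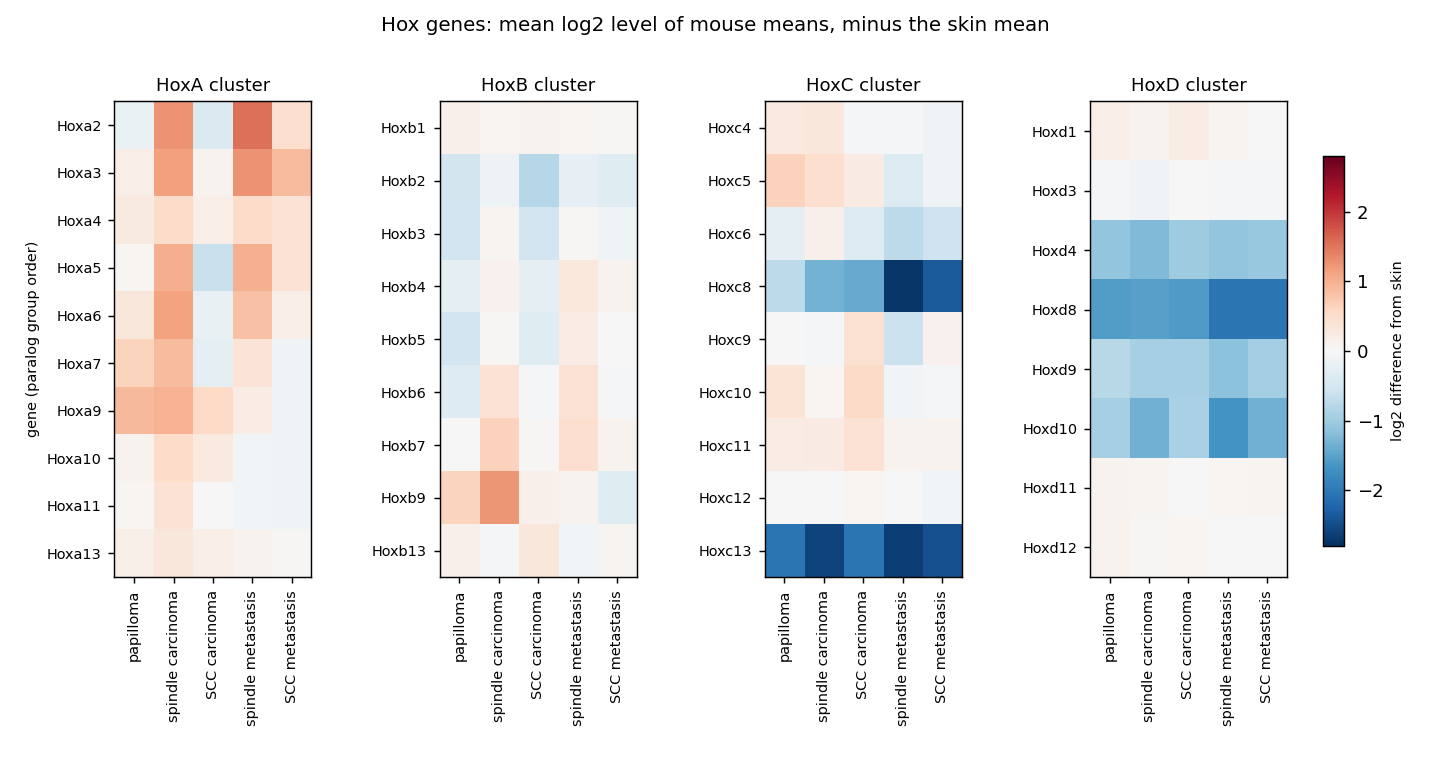
Heat map of the 36 Hox genes, with rows in cluster order and columns for papilloma, spindle carcinoma, SCC, spindle metastasis and SCC metastasis. Each cell is the group's mean of mouse means minus the skin mean, on the log2 scale. Hoxc13, Hoxc8 and Hoxd4 to Hoxd10 are lowest across the tumour columns, and the upper Hoxa rows are highest in the spindle columns.

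Papillomas were set against the dorsal skin of the same 13 mice to ask what changed in benign tumours. Hoxc13, Hoxd4, Hoxd8, Hoxd9, Hoxd10, Hoxb2 to Hoxb6 and Hoxc8 were lower in papillomas, while Hoxc5, Hoxb9, Hoxa7, Hoxa4, Hoxc11 and Hoxd1 were higher. In all, 17 of 36 members passed (limma with mouse as a block, Benjamini-Hochberg adjusted over 18772 genes): 6 rose, against 24.5% of all genes, and 11 fell, against 18.1% of all genes. In either direction 42.6% of all genes passed, so the share of members called was near the background. The members' median difference was 0.03 and that of all genes 0.05.

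The genes that fell were led by Hoxc13. In papillomas its lowest, median and highest mouse means were 3.84, 4.40 and 5.51, against 4.21, 6.87 and 8.65 in skin, and it was lower in 12 of 13 mice. The ranges overlapped because some skins were as low as papillomas. The difference was -1.97 (SE 0.41, limma adjusted p = 0.00139). Hoxc13 activates keratins of the hair shaft.

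The Hoxd genes followed, with less spread between skins. Hoxd8 had a lowest, median and highest value of 4.74, 5.54 and 6.33 in papillomas, against 6.15, 7.16 and 8.24 in skin. The ranges met because mice 1407, 1706 and 1984 had high papillomas and the lowest skin was that of mouse 1984, and 12 of 13 mice had less in papillomas (difference -1.56, SE 0.18, limma adjusted p = 1.27e-05). Hoxd4 was lower in all 13 mice, with 5.34, 5.79 and 6.34 in papillomas, against 6.08, 6.94 and 7.54 in skin (difference -1.08, SE 0.13, limma adjusted p = 2.12e-05). Both lie in the anterior and middle part of the Hoxd cluster. Hoxd10, a gene of the lumbar and limb level, had 5.05, 5.58 and 6.20 in papillomas, against 5.80, 6.53 and 7.16 in skin (difference -0.94, SE 0.15, limma adjusted p = 0.00022). Hoxd9 had 4.89, 5.32 and 5.83 in papillomas, against 5.35, 6.23 and 6.82 in skin (difference -0.81, SE 0.13, limma adjusted p = 0.000155). The ranges of all 4 Hoxd genes overlapped at their edges.

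Of the Hoxb genes, Hoxb5 had 5.19, 5.78 and 6.20 in papillomas, against 5.88, 6.46 and 6.77 in skin, and fell by 0.56 (SE 0.08, limma adjusted p = 8.9e-05). Its neighbours Hoxb3, Hoxb2, Hoxb6 and Hoxb4 fell less, by 0.52, 0.46, 0.36 and 0.29, with limma adjusted p of 0.00185, 0.0312, 0.0397 and 0.0352. These genes lie in the 3′ and middle part of the cluster and act in the hindbrain, neck and upper trunk of the embryo. Hoxc8 had 6.94, 8.81 and 9.94 in papillomas, against 8.64, 9.31 and 9.86 in skin, with 10 of 13 mice lower (difference -0.67, SE 0.23, limma adjusted p = 0.0301).

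Of the genes that rose, Hoxc5 had 6.43, 7.48 and 8.28 in papillomas, against 5.93, 6.72 and 7.58 in skin. It was higher in 9 of 13 mice (difference 0.70, SE 0.19, limma adjusted p = 0.00876). Hoxa7 had 7.68, 8.85 and 9.42 in papillomas, against 7.30, 8.43 and 9.22 in skin, higher in 10 of 13 mice (difference 0.63, SE 0.21, limma adjusted p = 0.0256). Hoxb9 had 5.22, 6.24 and 8.17 in papillomas, against 4.99, 5.49 and 6.52 in skin (difference 0.64, SE 0.23, limma adjusted p = 0.0406). For Hoxb9 the highest value was that of mouse 1815, and without the 5 papillomas that stood apart its difference was 0.33 and no longer passed (limma adjusted p = 0.0556). The other 3 changed little: Hoxa4 rose by 0.24, Hoxc11 by 0.19 and Hoxd1 by 0.19 (limma adjusted p = 0.0465, 0.00687 and 0.0282). Hoxc11 and Hoxd1 exceeded the overall median in no array. Hoxa9 had a larger difference that did not pass (0.85, SE 0.38, limma adjusted p = 0.0837). The most posterior paralogs Hoxa13, Hoxb13 and Hoxd12 differed by 0.13, 0.14 and 0.10, with limma adjusted p of 0.429, 0.2 and 0.117. These paralogs were below the overall median in nearly all arrays.

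**Figure D2:**
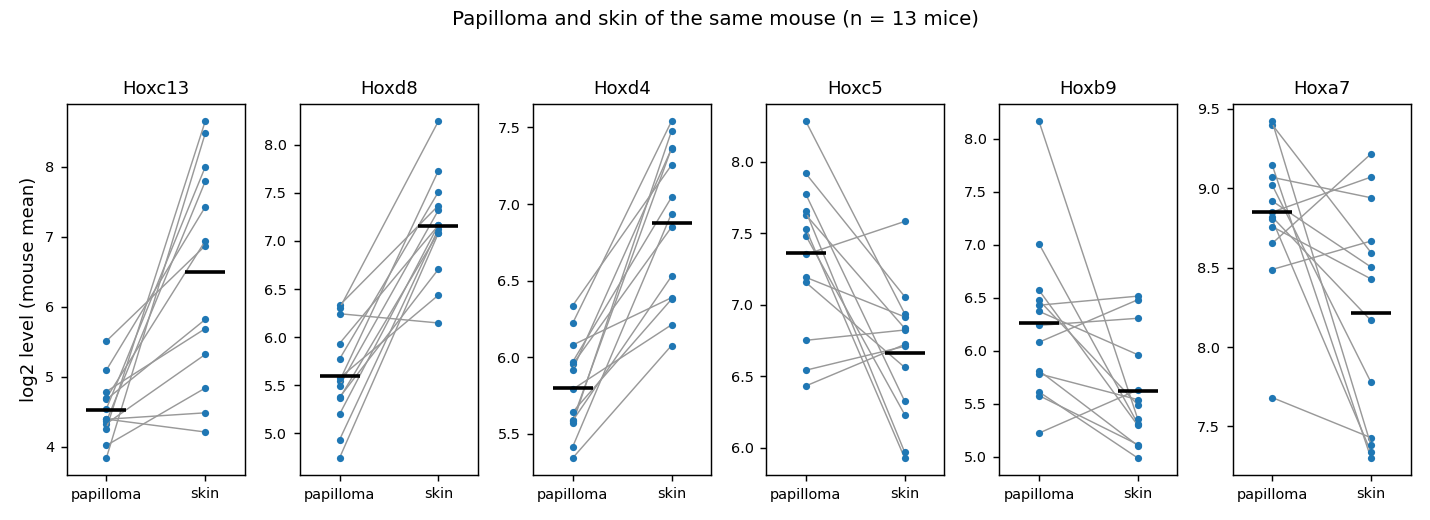
Mouse means of 6 Hox genes in papilloma and in skin, on the log2 scale, with a line joining the 2 values of each of 13 mice and a bar at each mean. Hoxd8 and Hoxd4 are lower in papilloma in 12 and 13 mice, and the skins of Hoxc13 spread from 4.21 to 8.65.

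Without the 5 papillomas that stood apart, 17 members passed, 15 of them the same, while 51.2% of all genes did. The calls for 9 genes (Hoxb3, Hoxb5, Hoxc5, Hoxc11, Hoxc13, Hoxd4, Hoxd8, Hoxd9 and Hoxd10) remained when any 1 mouse was left out and under every other setting in which the gene was tested (the filter on low values leaves out Hoxc11). Within the first batch alone 10 members passed, all among the 17, and the other batch held 2 mice, too few for a value. Cells of other kinds also differed between the tissues. Of 12 hair follicle genes, 11 fell (median -2.45), and their mean level was 4.72 to 6.94 in papillomas, against 4.77 to 11.07 in skin. All 10 skeletal muscle genes fell (median -3.06), with mean levels of 4.73 to 7.87 in papillomas and 5.01 to 11.50 in skin. Of 9 adipocyte genes 7 fell (median -2.96), with mean levels of 6.01 to 7.64 in papillomas and 6.72 to 11.13 in skin. Of 10 fibroblast genes 4 fell (median -0.63), among them Dpt and Dcn by 1.49 and 1.44, and the mean levels were 8.73 to 10.61 in papillomas and 9.49 to 11.04 in skin. Of 15 keratinocyte genes only 2 fell, Krt15 by 2.25 and Epcam by 1.02. The part of these cells in the Hox differences was not tested.

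Hoxc13 in skin followed the hair follicle genes from mouse to mouse. The 6 skins with the lowest Hoxc13, of mice 1706, 2022, 1508, 1717, 1616 and 1949, had Hoxc13 values of 4.21, 4.49, 4.84, 5.32, 5.66 and 5.69. Their mean hair follicle levels were 4.85, 5.04, 4.77, 5.15, 5.04 and 5.06. Mouse 1407 lay between with 5.82 for Hoxc13 and 7.24 for the hair genes. The other 8 skins had Hoxc13 of 6.87 to 8.65 and hair follicle levels of at least 8.90. The skins thus fell into separate groups, with little hair gene signal in 6 of 15. Papillomas had a median hair follicle level of 5.38.

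The Hox partners were tested in the same fit. Of 8 measured TALE cofactors none rose and 2 fell, Pknox2 by 1.45 (limma adjusted p = 0.000796) and Meis3 by 0.46 (limma adjusted p = 0.0189). Of 21 polycomb and trithorax genes 3 rose and 6 fell. The polycomb subunit Cbx7 fell by 1.33 and Ezh1, the methyltransferase of resting cells, by 0.66, while Jarid2 and Phc2 rose by 0.50 and 0.34. Of 9 homeobox genes that flank Hox clusters or belong to the ParaHox group, Cdx1 and Evx2 rose, by 0.24 and 0.23. None of 8 measured noncoding genes of the Hox clusters passed. In papillomas of mice that had several, these noncoding genes averaged between 2.95 and 5.48, and Cdx1 and Evx2 5.08 and 5.18. All of these lie below the overall median, so changes in them are hard to see. Of 27 other positional homeobox and T-box genes 5 rose and 8 fell: Pitx1, the hindlimb gene, rose by 5.38 (limma adjusted p = 2.18e-07) and Tbx3 by 0.99, while Lhx2, a hair follicle stem cell gene, fell by 2.62 and Tbx15, a gene of dorsal dermis, by 2.06.

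Carcinomas were tested by histology. SCC was set against papillomas of the same 8 WT mice. At an unadjusted p under 0.05 in limma there were 2 members, against 1768 of all 18772 genes. After adjustment none of the 36 members passed, while 0.202% of all genes did (0.0107% higher and 0.192% lower). The count was also 0 without the papillomas that stood apart and without the block. Hoxa7 had 6.47, 8.18 and 9.14 in SCC, against 8.49, 8.83 and 9.15 in papillomas, lower in 6 of 8 mice (difference -0.88, SE 0.28, limma adjusted p = 0.316). Hoxa5 had 5.21, 6.21 and 8.15 in SCC, against 6.57, 6.94 and 7.45 in papillomas, lower in 7 of 8 mice (difference -0.63, SE 0.30, limma adjusted p = 0.591). In both genes SCC spread more widely than papillomas.

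Spindle carcinomas, in which tumour cells take a fibroblast-like shape, were set against papillomas in 9 mice. Hoxa2 to Hoxa6 with Hoxb3, Hoxb5 and Hoxb6 rose and Hoxc13 fell. These 8 and 1 of 36 members stand against 12.6% of all genes that rose and 11.2% that fell, 23.8% in all, so the share of members called was near the background. The members' median difference was 0.09 and that of all genes 0.03. Hoxa2, a hindbrain and branchial arch gene in the embryo, had 5.93, 7.55 and 8.20 in spindle carcinomas, against 5.61, 5.67 and 7.72 in papillomas. It was higher in 8 of 9 mice (difference 1.33, SE 0.31, limma adjusted p = 0.0159). The exception with a high papilloma value was mouse 1815, both of whose papillomas that stood apart were high for Hoxa2, with 7.63 and 7.81.

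Hoxa3, a gene of pharyngeal and neck development, had 5.76, 6.30 and 6.72 in spindle carcinomas, against 5.05, 5.25 and 6.55 in papillomas (difference 0.90, SE 0.18, limma adjusted p = 0.0109). Hoxa5 had 7.20, 7.87 and 8.59 in spindle carcinomas, against 6.72, 6.96 and 8.37 in papillomas (difference 0.79, SE 0.21, limma adjusted p = 0.0249). Hoxa6 had 7.93, 8.23 and 8.66 in spindle carcinomas, against 7.09, 7.55 and 8.29 in papillomas (difference 0.64, SE 0.16, limma adjusted p = 0.0193). Each of the 3 was higher in 8 of 9 mice, and their ranges overlapped. Hoxb6, Hoxb3, Hoxb5 and Hoxa4 rose by 0.64, 0.54, 0.46 and 0.26, with limma adjusted p of 0.0226, 0.038, 0.0318 and 0.0454. Hoxc13 fell further in all 9 mice, with 3.71, 3.86 and 4.16 in spindle carcinomas, against 3.84, 4.39 and 5.51 in papillomas (difference -0.60, SE 0.17, limma adjusted p = 0.0286).

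The count was 13 without the papillomas that stood apart, with the 9 genes among them and 36.8% of all genes called. Without the arrays against their histology label it was 11, again with the 9 among them and 27.7% of all genes, and Hoxa2 then differed by 1.48 (limma adjusted p = 0.00824). Hoxa2 and Hoxa3 passed with any 1 mouse left out, and without mouse 1383 only 3 members passed. Within the first batch alone the count was 3. Without the carcinomas titled RegCA no member passed, and Hoxa2 differed by 1.44 (limma adjusted p = 0.117). All 15 keratinocyte genes fell (median -3.19, Krt1 by 4.51 and Dsg3 by 4.33), with mean levels of 5.89 to 10.44 in spindle carcinomas over all 10 mice and 6.22 to 11.59 in papillomas. Of 10 fibroblast genes 1 rose, Pdgfra by 1.98, with mean levels of 9.21 to 11.05 in spindle carcinomas and 8.73 to 10.61 in papillomas. Whether the Hox signal came from tumour cells or from stroma was not tested.

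The same fit held the partners of the Hox proteins. Of 8 TALE cofactors 4 rose, Meis2 by 0.60, Pbx3 by 0.57, Pknox1 by 0.33 and Pbx2 by 0.25. Of 21 polycomb and trithorax genes 11 rose and 1 fell, Psip1 rising by 0.88 and Phc1 by 0.87, while Jarid2 fell by 0.72. Of the other positional homeobox and T-box genes 7 rose, led by Nr2f1 (2.91) and Tbx18 (1.96), and 5 fell, led by the epidermal genes Dlx5 and Dlx3, which fell by 2.28 and 1.99.

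Within the WT mice, spindle carcinomas (n = 6) were compared with SCC (n = 8) directly, since SCC came from WT mice only. Of 36 members 3 passed, all higher, and 7.56% of all genes did (3.47% higher and 4.09% lower), so the share of members called was near the background. Hoxa2 had 5.93, 7.08 and 7.70 in spindle carcinomas, against 5.24, 5.49 and 7.09 in SCC (difference 1.41, SE 0.31, limma adjusted p = 0.0197). Hoxa3 had 5.76, 6.36 and 6.56 in spindle carcinomas, against 4.86, 5.17 and 6.12 in SCC (difference 0.97, SE 0.18, limma adjusted p = 0.0158). Hoxa5 had 7.20, 7.86 and 8.26 in spindle carcinomas, against 5.21, 6.21 and 8.15 in SCC (difference 1.51, SE 0.39, limma adjusted p = 0.0339). The overlap came from mouse 1949, which had both the lowest spindle carcinoma and the highest SCC for Hoxa2 and for Hoxa5.

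That mouse also held the 1 spindle carcinoma with keratinocyte genes at SCC level. Without it 5 members passed, the same 3 with Hoxa6 and Hoxb3, against 19.6% of all genes. Hoxa2 then differed by 1.63 (limma adjusted p = 0.00119), Hoxa3 by 1.07 (limma adjusted p = 0.00106) and Hoxa5 by 1.62 (limma adjusted p = 0.0122). Among all arrays the count was 0 without mouse 1508 and 6 without mouse 1949. Of 15 keratinocyte genes 11 were lower (median -3.04), and of 8 TALE cofactors and 10 fibroblast genes none passed.

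**Figure D3:**
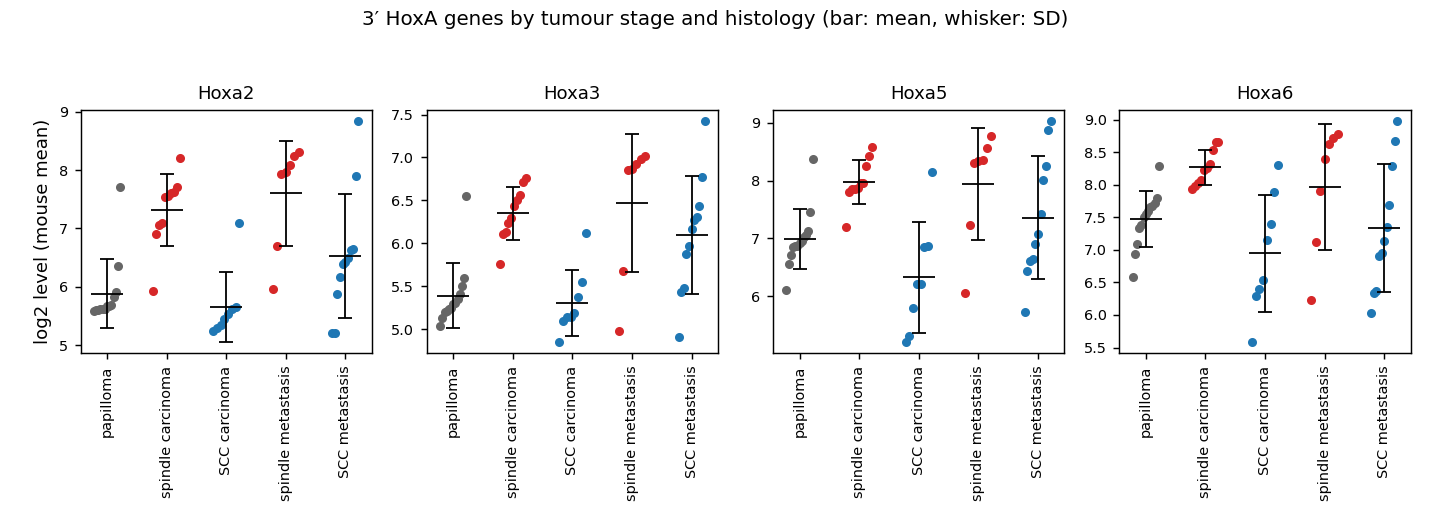
Mouse means of Hoxa2, Hoxa3, Hoxa5 and Hoxa6 on the log2 scale, 1 point per mouse, in papilloma, spindle carcinoma, SCC, spindle metastasis and SCC metastasis, with the group mean as a bar and the SD as whiskers. For Hoxa2 the means were 7.32 in spindle carcinoma and 5.65 in SCC, and SCC metastases spread from 5.20 to 8.85.

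Metastases were set against the primary carcinomas of the same histology in the same mouse. Several mice had carcinomas of both histologies, and the carcinoma from which a metastasis arose was not identified. SCC metastases had more Hoxa5 than SCC in all 8 mice: 5.72, 7.25 and 9.04 in metastases, against 5.21, 6.21 and 8.15 in SCC (difference 1.11, SE 0.21, limma adjusted p = 0.0239). Hoxa3 was also higher in all 8 mice, with 4.91, 6.23 and 7.43 in metastases, against 4.86, 5.17 and 6.12 in SCC (difference 0.86, SE 0.18, limma adjusted p = 0.0335). These were the 2 members of 36 that passed, and 4.55% of all genes did (1.81% higher and 2.74% lower).

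Both calls depended on which metastases entered. With lymph node metastases alone none passed in limma (Hoxa5 0.91, adjusted p = 0.276, and Hoxa3 0.49, adjusted p = 0.329), and 0.32% of all genes did. Without the arrays against their histology label Hoxa5 alone passed (1.14, limma adjusted p = 0.046), with 2.45% of all genes. Neither passed without mouse 1383, without the block or within the first batch alone. Of 8 lymphocyte genes 4 were higher in the metastases (median 1.55), with mean levels of 6.46 to 9.52 in SCC metastases, against 4.69 to 6.41 in SCC. Of 15 keratinocyte genes 3 were lower (median -0.99), with 6.24 to 10.22 in SCC metastases, against 10.33 to 11.39 in SCC.

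Spindle metastases did not differ detectably from spindle carcinomas in 7 mice: none of 36 members passed in limma and 0.0% of all genes did. At an unadjusted p under 0.05 there were 4 members, against 2495 of all 18772 genes. Hoxc8 had 4.79, 6.56 and 8.51 in spindle metastases, against 6.55, 8.64 and 9.52 in spindle carcinomas, lower in 6 of 7 mice (difference -1.47, SE 0.55, limma adjusted p = 0.339). Hoxb9, a gene of the trunk and lumbar level, had 4.71, 5.48 and 7.29 in spindle metastases, against 5.18, 7.36 and 8.09 in spindle carcinomas, also lower in 6 of 7 mice (difference -1.27, SE 0.40, limma adjusted p = 0.314). When the 2 changes to metastasis were tested against each other, no member passed in limma, and 0.0% of all genes passed. No member had an unadjusted p under 0.05, against 1806 of all 18772 genes. The interaction for Hoxa5 was -1.08 (SE 0.56, limma adjusted p = 0.549).

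Among metastases, spindle histology (7 mice) was compared with SCC histology (11 mice). Of these, 4 spindle mice and 3 SCC mice were HrasKO, and genotype was a covariate with mouse as a random block. The differences are thus adjusted and need not equal those of the means. With all sites together none of 36 members passed in limma, and 0.0693% of all genes did (0.0426% higher and 0.0266% lower). At an unadjusted p under 0.05 there was 1 member, against 3378 of all 18772 genes. Hoxa2 averaged 7.60 ± 0.91 in spindle metastases and 6.53 ± 1.07 in SCC metastases (SD, n = 7 and 11; difference 0.88, SE 0.45, limma adjusted p = 0.321). Hoxa6 differed by 0.69 (SE 0.43, limma adjusted p = 0.421). Without the arrays against their histology label the count was still 0, with 5.31% of all genes called.

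Lymph nodes were the main site of both histologies while the other sites differed in their mix, and lymph node metastases were also compared alone, a choice made after the data had been seen. In lymph nodes, with genotype again a covariate, 7 of 36 members passed between spindle (6 mice) and SCC (8 mice). Of these 6 were higher and 1 lower, and 11.8% of all genes passed. Hoxa2 had 7.61, 8.04 and 8.39 in spindle nodes, against 5.03, 6.16 and 6.63 in SCC nodes. The groups did not overlap (difference 2.08, SE 0.28, limma adjusted p = 0.000479). Hoxa3 did not overlap either, with 6.59, 6.88 and 7.12 in spindle nodes, against 4.86, 5.78 and 6.31 in SCC nodes (difference 1.13, limma adjusted p = 0.00957).

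Hoxa6 had 8.13, 8.57 and 8.99 in spindle nodes, against 6.07, 6.62 and 8.67 in SCC nodes (difference 1.67, limma adjusted p = 0.00919). Hoxa5 had 8.05, 8.41 and 8.70 in spindle nodes, against 5.72, 6.39 and 8.88 in SCC nodes (difference 1.72, limma adjusted p = 0.0187). Hoxa7 had 8.61, 9.17 and 9.69 in spindle nodes, against 6.50, 7.79 and 9.54 in SCC nodes (difference 1.57, limma adjusted p = 0.0199). For these 3 genes some SCC nodes reached the spindle range, for Hoxa5 those of mouse 2022. Hoxb3 was higher by 0.73 (limma adjusted p = 0.0459). Hoxd10 ran the other way without overlap, with 4.63, 4.83 and 4.95 in spindle nodes, against 4.99, 5.48 and 6.18 in SCC nodes (difference -0.64, limma adjusted p = 0.0397). How many of all genes had no overlap was not counted.

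**Figure D4:**
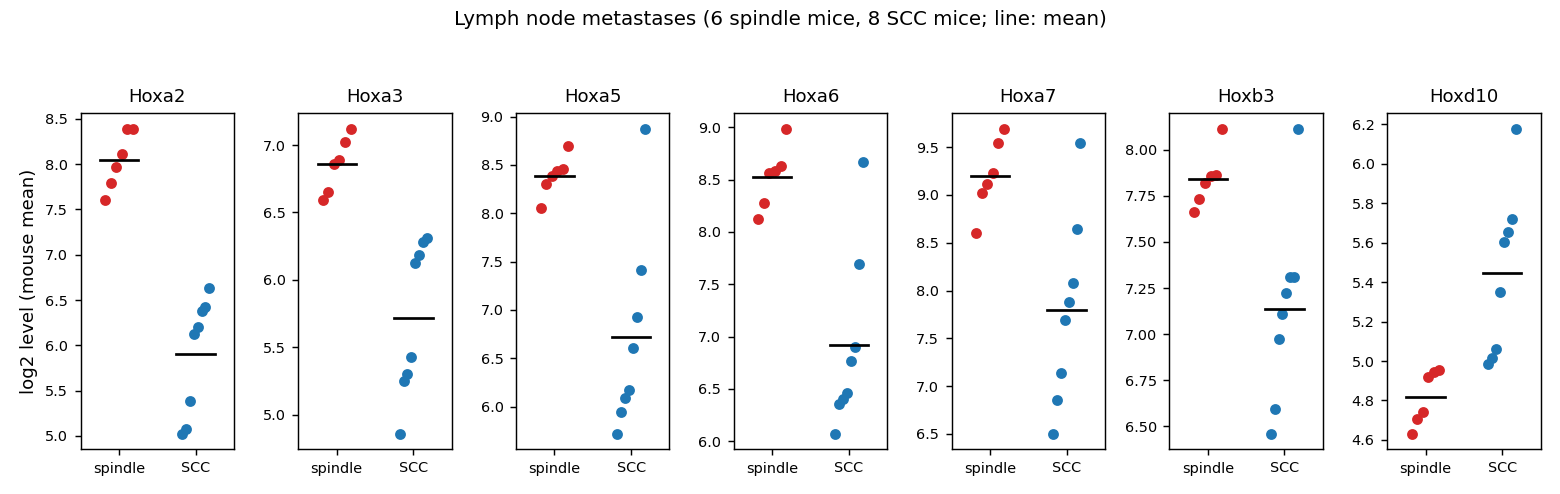
Mouse means of 7 Hox genes in lymph node metastases of spindle histology (6 mice) and of SCC histology (8 mice), on the log2 scale, with a line at each group mean. Hoxa2, Hoxa3 and Hoxd10 have no overlap, while for Hoxa5, Hoxa6 and Hoxa7 some SCC mice lie among the spindle mice.

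The count in lymph nodes was 5 without the arrays against their histology label, with 10.3% of all genes called. Hoxa2, Hoxa3, Hoxa5 and Hoxa6 then differed by 1.79, 0.98, 1.54 and 1.44, with limma adjusted p of 0.00903, 0.0223, 0.0436 and 0.0395, and Hoxd10 by -0.70 (limma adjusted p = 0.0297). With 1 mouse left out in turn the count was between 3 (without mouse 1616 or 1949) and 12 (without mouse 2022), and Hoxa2, Hoxa3 and Hoxa6 passed each time. The mean level of keratinocyte genes was 5.32 to 6.50 in spindle nodes, against 6.80 to 10.28 in SCC nodes. That of fibroblast genes was 9.91 to 10.91 in spindle nodes, against 8.34 to 10.39 in SCC nodes, and that of lymphocyte genes 5.24 to 7.88 in spindle nodes, against 5.65 to 9.52 in SCC nodes. The part of these cells was not tested.

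Metastases in other organs were set against lymph node metastases of the same mice. For lung, histology was a covariate, since mice 1664, 1949 and 1984 paired an SCC lung with spindle nodes. The lungs of mice 1664 and 1949 went against that label. The lung differences are thus adjusted and need not equal those of the printed values. Between lung and lymph node (8 mice) no member passed in limma, and 0.0% of all genes did. At an unadjusted p under 0.05 there were 9 members, against 1155 of all 18772 genes. Hoxc8 had 4.18, 5.88 and 8.66 in lung, against 6.86, 7.33 and 9.27 in lymph node, lower in 7 of 8 mice (difference -1.58, SE 0.64, limma adjusted p = 0.778). Hoxb9 had 4.17, 4.58 and 9.06 in lung, against 4.74, 5.60 and 8.42 in lymph node (difference -1.36, SE 0.71, limma adjusted p = 0.913). Over all mice the mean level of 9 lung epithelium genes was 4.76 to 10.20 in lung (median 8.87), against 4.46 to 4.95 in lymph node, so the lowest lung sample lay within the lymph node range.

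The comparisons of spleen, liver and thymus each rest on 3 mice. In simulated data of that size none of 200 genes changed by 1 log2 unit was recovered, and no gene at all passed here (0.0% in each). Hoxc8 had 4.97, 5.35 and 5.68 in spleen, against 6.86, 6.91 and 7.42 in lymph node, without overlap (difference -1.73, SE 0.29, limma adjusted p = 0.245). It had 4.93, 5.44 and 5.82 in liver, against 6.98, 7.42 and 7.97 in lymph node, again without overlap (difference -2.06, SE 0.35, limma adjusted p = 0.352). In thymus it had 5.30, 6.34 and 7.70, against 6.98, 7.28 and 7.97 in lymph node, with overlap (difference -0.96, SE 0.47, limma adjusted p = 0.999). Its neighbour Hoxc6 had 4.47, 4.62 and 4.80 in spleen, against 5.18, 6.57 and 6.93 in lymph node, without overlap. In liver Hoxc6 had 4.55, 4.79 and 6.92, against 6.53, 6.93 and 7.52 in lymph node. Ranges also did not overlap for Hoxa4, Hoxa7, Hoxa10, Hoxb2, Hoxb3, Hoxc9, Hoxc10 and Hoxd4 in spleen. In liver this held for Hoxa10, Hoxb9, Hoxc5, Hoxc10, Hoxc11, Hoxd1, Hoxd8 and Hoxd10, and in thymus for Hoxa10. Hoxd1 was higher in liver than in lymph node, while the others were lower outside the lymph node. Hoxa10, Hoxc10, Hoxc11 and Hoxd1 are among the low members. With 3 mice a side such separation arises readily, and its share over all genes was not counted. At an unadjusted p under 0.05 in limma, 10 members differed in spleen, 8 in liver and 1 in thymus. Of all 18772 genes, 2441, 2180 and 446 did so.

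Host tissue genes were read in the same samples. The mean of 8 liver genes was 10.53 to 12.35 in liver metastases, against 4.37 to 4.97 in lymph node metastases over all mice, and that of 6 spleen or erythroid genes was 5.57 to 9.92 in spleen metastases, against 5.12 to 6.78 in lymph node metastases. Thymus genes were at 5.11 to 5.31 in thymus metastases, against 5.05 to 5.68 in lymph node metastases. Liver samples lay clear of the lymph nodes, spleen samples overlapped them, and the labelled organ was not seen in thymus samples. The lowest means over the 24 more abundant members were in the spleen of mouse 1815 (5.22), the liver of mouse 1815 (5.28) and the liver of mouse 1383 (5.51). The single kidney metastasis, of mouse 1815, had 9.70 for Hoxc8, and the single dorsal one, of mouse 2104, had 8.77. The lymph node mean was 7.76 ± 0.82 (SD, n = 14), with a highest mouse mean of 9.27. The dorsal value thus lay within the lymph node range and the kidney value above it, each from a single array. The share of host tissue in the difference between organs was not tested.

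Lymph nodes with LW in their title were set against nodes with UP in 6 mice that had both. The labels do not define the codes. No member passed in limma, and 0.0% of all genes did. At an unadjusted p under 0.05 there were 10 members, against 535 of all 18772 genes. Hoxb9 was higher in LW in 6 of 6 mice, with 4.88, 5.33 and 8.60 in LW, against 4.60, 5.13 and 6.48 in UP (difference 0.84, SE 0.34, limma adjusted p = 0.974). Hoxc10, a lumbar and hindlimb gene, was higher in LW in 5 of 6 mice, with 3.81, 4.45 and 4.94 in LW, against 3.65, 3.75 and 3.86 in UP (difference 0.65, SE 0.17, limma adjusted p = 0.974).

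Mice were compared over their metastases, to ask whether metastases of 1 mouse share Hox levels. Over 42 metastases of 13 mice, 17 of 36 members differed between mice (limma moderated F over the mouse coefficients with histology as a covariate), against 33.0% of all genes. They were Hoxa2 to Hoxa7 and Hoxa9, Hoxb2 to Hoxb7, Hoxc9, Hoxc11, Hoxd3 and Hoxd12. Of these, Hoxc11, Hoxd3 and Hoxd12 exceeded the overall median in no array. Only mice 1664, 1949 and 1984 had metastases of both histologies, so the covariate rests on them. The SCC-labelled lungs of mice 1664 and 1949 had keratinocyte means of 6.63 and 6.24. Differences between spindle and SCC may therefore remain in the mouse effect. Genotype and batch were each the same for all arrays of a mouse and cannot be told apart from the mouse here. Metastatic site was not a covariate, and mice differed in their mix of sites. The F was 5.74 for Hoxa5 (limma adjusted p = 0.000816), 5.53 for Hoxa7 (limma adjusted p = 0.00104), 5.50 for Hoxb5 (limma adjusted p = 0.00107) and 5.19 for Hoxa2 (limma adjusted p = 0.00154). The call remained for 11 of the 17 with any 1 mouse left out: Hoxa2 to Hoxa7, Hoxb3, Hoxb5, Hoxb6, Hoxb7 and Hoxc9. Lymph node metastases alone gave 16 members, 13 of them shared, with 35.0% of all genes. That fit had no histology covariate. The nodes of each mouse had a single histology, so mouse and histology cannot be told apart there. Leaving out the arrays against their label gave 16 with 26.1%, with mouse 1984 alone then holding both histologies.

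The spread between and within mice differed by gene. For Hoxa5 the SD of mouse means was 1.05 and the SD within a mouse 0.62, and the mouse means ran from 5.72 in mouse 1717 to 8.88 in mouse 2022. In mouse 1717 the 3 metastases, in 2 lymph nodes and the lung, had 5.73, 5.72 and 5.73 for Hoxa5. Its carcinoma had 5.32, while its papilloma had 6.85 and its skin 7.66. In mouse 2022 both lymph node metastases were high, with 9.00 and 8.75 for Hoxa5. Its SCC had 6.29 and 7.46, its spindle carcinoma 7.86, its papillomas 6.82, 7.14 and 7.14 and its skin 7.27. In these mice the Hoxa5 levels of the metastases differed from those of the skin. Both mice were picked for the extremes of their metastasis means, so a less extreme skin value carries little weight.

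For Hoxa2 the SD was 1.09 between and 0.62 within mice, with mouse means from 5.20 in mouse 2104 to 8.36 in mouse 1949. Hoxc9 had 0.97 between and 0.70 within mice. Mouse 1383 had the highest lymph node metastases for Hoxc9, with 8.08 and 8.33. Its other metastases had 7.23 in lung, 6.87 in thymus and 6.07 in liver. Its carcinomas had 6.87 (SCC) and 6.25 (spindle), its papilloma 5.67, just below the papilloma median of 5.74, and its skin 6.73, the highest of 15. The opposite pattern held for Hoxb9, with 0.76 between and 1.24 within mice, for Hoxc8 with 1.00 and 1.24, and for Hoxd8 with 0.77 and 1.11. Mouse 1949 shows it: Hoxb9 was 9.06 in the lung and 8.70 and 8.60 in 2 lymph nodes, but 4.25 in another lymph node and 4.67 in the spleen. Its mixed carcinoma had 8.92 for Hoxb9.

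**Figure D5:**
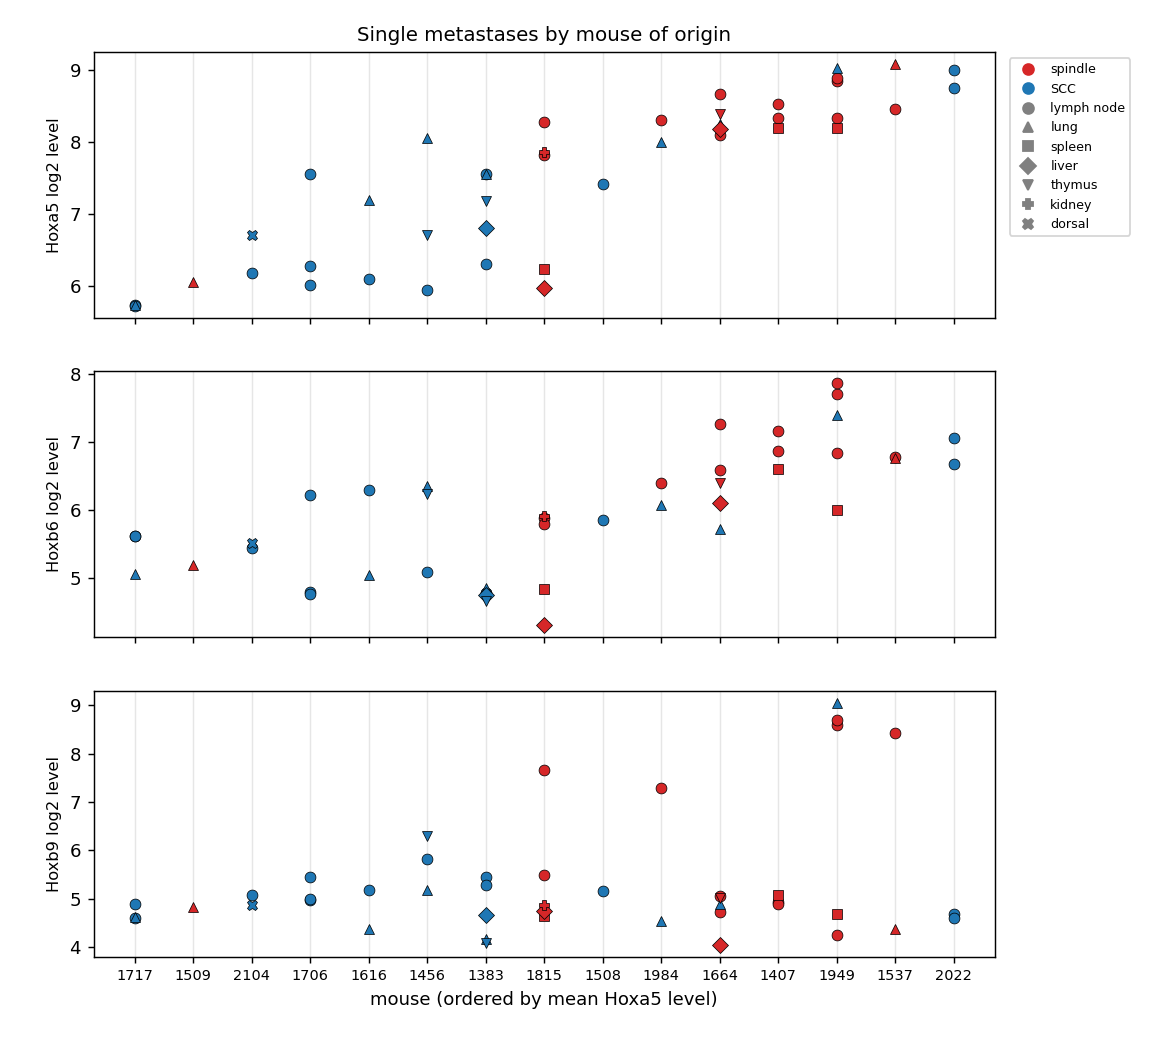
Hoxa5, Hoxb6 and Hoxb9 in single metastases, on the log2 scale, with mice along the axis in order of their mean Hoxa5. Colour gives histology and marker shape the site. Hoxa5 runs from 5.72 in mouse 1717 to 8.88 in mouse 2022 and the 3 metastases of mouse 1717 lie on one point, while those of mouse 1815 span 5.97 to 8.28. Hoxb9 in mouse 1949 spans 4.25 to 9.06.

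Papillomas were tested in the same way. Over 25 papillomas of 11 mice, 3 members differed between mice, Hoxa2, Hoxa3 and Hoxa10 (limma adjusted p = 0.0345, 0.0331 and 0.0386), against 5.3% of all genes. Without the papillomas that stood apart none passed in limma, with 0.362% of all genes called, and without mouse 1815 none passed either, while 10 passed without mouse 1508. The mouse effects in papillomas and in metastases were not tested against each other.

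The profile of all 36 members was also compared over pairs of arrays, each centred on its group mean. Metastasis pairs of the same mouse had a mean Pearson correlation of 0.30 (57 pairs), against -0.04 for pairs of different mice (889 pairs). Metastasis and carcinoma of the same mouse had 0.19 (67 pairs), against -0.01 for different mice (901 pairs). Metastasis and skin of the same mouse had 0.01 (44 pairs), and metastasis and papilloma 0.01 (81 pairs). Papilloma pairs had 0.21 (17 pairs). Over all 18772 genes the values for the same mouse were 0.21 for metastasis pairs, 0.13 for metastasis with carcinoma, 0.07 for metastasis with skin and 0.16 for papilloma pairs. By mean correlation per mouse, a metastasis was closest to the other metastases of its own mouse in 15 of 42 arrays by the Hox genes and in 19 of 42 by all genes. It was closest to the carcinomas of its own mouse in 9 of 39 arrays by the Hox genes and in 19 of 39 by all genes. Pairs share mice and arrays, so no test was made.

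Members of the Hoxa and of the Hoxb cluster varied together across the metastasis means of the 15 mice, among the 24 more abundant members. Those of Hoxc and of Hoxd did so less. The median Pearson correlation was 0.84 within the Hoxa cluster (21 pairs, 0.42 to 0.96) and 0.80 within Hoxb (21 pairs, 0.30 to 0.97). It was 0.54 within Hoxc (15 pairs, -0.265 to 0.93) and 0.52 within Hoxd (6 pairs, 0.30 to 0.80). The lowest value within Hoxc was that of Hoxc4 with Hoxc13. Hoxa with Hoxb genes had 0.71, while Hoxa with Hoxd genes had -0.36, and pairs from different clusters had 0.05 over 213 pairs. The points are the same mice for every pair and share histology and host tissue, so these are descriptions.

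Single tumours stood out by 2 log2 units or more above the median of the 97 tumour arrays. Hoxb9 did so in 16 arrays of 8 mice, Hoxa2 in 7 arrays of 4 mice, Hoxa9 in 4 arrays of 4 mice, Hoxd8 in 4 arrays of 2 mice and Hoxc9 in 3 arrays of 2 mice. A set of posterior Hoxa genes was high in 1 spindle carcinoma of mouse 2022: Hoxa11 was at 7.41, Hoxa13 at 7.15 and Hoxa10 at 6.95, the highest values of all arrays for each gene, and the tumour medians of Hoxa11 and Hoxa10 were 3.71 and 4.79. The skin of the same mouse was also the highest of 15 skins for these genes. It had 5.91 for Hoxa11, 6.26 for Hoxa13 and 5.91 for Hoxa10, where the skin medians were 3.60, 4.80 and 4.71. The other tumours of mouse 2022 did not share this, with Hoxa11 between 3.41 and 3.88 in its SCC, papillomas and lymph nodes. Hoxa10 to Hoxa13 pattern the lower trunk, the limbs and the genital tubercle.

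HrasKO and WT mice were compared in skin and papilloma. In skin (6 HrasKO and 9 WT mice) no member passed in limma with batch as a covariate, and 0.00533% of all genes did. At an unadjusted p under 0.05 there were 3 members, against 2062 of all 18772 genes. Hoxd4 had 6.74, 7.35 and 7.54 in HrasKO skin, against 6.08, 6.53 and 7.36 in WT skin (difference 0.63, SE 0.20, limma adjusted p = 0.284). Hoxc4 had 5.81, 6.16 and 6.61 in HrasKO skin, against 5.48, 5.73 and 6.04 in WT skin (difference 0.48, SE 0.14, limma adjusted p = 0.26). In papillomas (4 HrasKO and 9 WT mice) no member passed in limma, and 0.00533% of all genes passed. No member had an unadjusted p under 0.05, against 959 of all 18772 genes. Hoxc8 averaged 9.05 ± 0.63 in HrasKO papillomas and 8.50 ± 0.86 in WT papillomas (SD; difference 0.56, limma adjusted p = 1.0). The change to papilloma did not differ detectably by genotype either: no member passed in limma, and 0.0% of all genes passed. No member had an unadjusted p under 0.05, against 1419 of all 18772 genes. Hoxc9 was at 0.64 (limma adjusted p = 0.726) and Hoxc13 at 0.62 (limma adjusted p = 0.891). Hras itself was not analysed here, so the genotype labels were not checked against it.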

How the data were processed

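Per the submitters' processing notes, the deposited log2 values came from RMA, which corrects background, normalizes across arrays by quantiles and summarises probes; its version, and whether batches were corrected, are not stated in the labels or the file. Of 28204 probe sets, 21141 name 1 gene symbol in the platform annotation, 1881 name several and 5182 are not named. The set with the highest mean per gene gave 18772 genes. Tests were fitted with limma 3.58.1 (R 4.3.3) on mouse means, and on single arrays for the mouse effects, with Benjamini-Hochberg adjustment over all genes and a threshold of 0.05. Groups pair through the animals named in the labels, so mouse was a fixed block where each mouse had both groups and a random block otherwise. Histology was a covariate for lung against lymph node and for the mouse effect in metastases. Genotype was a covariate for spindle against SCC metastasis, and batch for HrasKO against WT. The script was tested on simulated data: of 200 genes changed by 1 log2 unit, 87% were recovered for papilloma against skin. Members that passed are named, and the 8 largest in each direction have full values; where none passed, the 2 largest are named. Members and lists were chosen with earlier results of these data known. Alternatives were single arrays, no block, the first batch, a low-value filter, mean of sets, repeated quantile normalization and leaving out arrays or mice.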

Additional observations from a re-analysis of the deposited data

Results flagged for a closer look

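In groups of 4 to 10 mice, a mouse far from the others was found in 10 of 90 tests over 30 members; by chance about 1 in 20 such tests is. In SCC, mouse 1949 was highest for Hoxa2 at 7.09 (next 5.66), mouse 1383 lowest for Hoxb4 at 5.54 (next 6.26), and mouse 2104 highest for Hoxb9 at 7.63 (next 6.02) and for Hoxc11 at 5.50 (next 4.01). In spindle carcinomas, mouse 1537 was highest for Hoxc13 at 4.65 (next 4.16) and for Hoxd3 at 5.27 (next 4.95). Mouse 1407 was lowest there for Hoxc5 at 5.29 (next 6.84) and for Hoxc6 at 5.08 (next 6.41). In spindle metastases, mouse 1537 was highest for Hoxc9 at 6.72 (next 5.44) and mouse 1509 for Hoxd10 at 5.50 (next 4.91).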

How the results depend on the processing

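Counts of Hox genes that passed moved by over 1.5 times in these cases. Within the first batch alone they were 10 for papilloma against skin, 3 for spindle carcinoma against papilloma, 0 for SCC metastasis against SCC and 1 for the mouse effect in papillomas. With single arrays they were 1 each for SCC metastasis against SCC, spindle against SCC metastasis, spleen against lymph node and liver against lymph node, and no gene was shared with the main result in these. Without carcinomas titled RegCA, spindle carcinoma against papilloma gave 0. Without the papillomas that stood apart, the mouse effect in papillomas gave 0. Chosen after seeing the data, leaving out the arrays against their histology label gave 5 for spindle carcinoma against SCC and 1 for SCC metastasis against SCC; lymph nodes alone gave 0 for SCC metastasis against SCC and 7 for spindle against SCC metastasis, or 5 with both. With 1 mouse left out the counts were 10 (mouse 1456) to 18 (mouse 1815) for papilloma against skin, 3 (mouse 1383) to 12 (mouse 1815) for spindle carcinoma against papilloma, 0 (mouse 1508) to 6 (mouse 1949) for spindle carcinoma against SCC, 0 (mouse 1383) to 3 (mouse 2104) for SCC metastasis against SCC, 14 (mouse 2104) to 18 (mouse 1984) for the mouse effect in metastases and 0 (mouse 1815) to 10 (mouse 1508) for that in papillomas. The causes were not tested.

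The block that pairs samples of 1 mouse changed few calls. With no replicate block the counts were 17 for papilloma against skin (16 shared), 9 for spindle carcinoma against papilloma (8 shared), 4 for spindle carcinoma against SCC, 0 for SCC metastasis against SCC and 0 for the others. Of 609 values of named genes under other settings, 547 kept their direction and side of the threshold, 55 no longer passed, 7 newly passed and 0 changed sign. With 1 mouse left out, 680 of 817 kept both, 137 no longer passed and 0 changed sign. These values include named genes that did not pass in the main fit. Calls that remained with any 1 mouse left out were 9 of 17 for papilloma against skin. They were 2 of 9 for spindle carcinoma against papilloma, 0 of 3 for spindle carcinoma against SCC and 0 of 2 for SCC metastasis against SCC. For the mouse effects they were 11 of 17 in metastases and 0 of 3 in papillomas. Thymus against lymph node within the first batch and single arrays for HrasKO against WT skin were not run, since they leave 1 pair or equal the mouse means.

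In simulated data 59.5% of genes changed by 1 log2 unit were recovered for spindle carcinoma against SCC, 44% for lung against lymph node and 0% for spleen, liver and thymus, so these last counts of 0 carry little weight.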
